A study of Mus musculus with 18 samples.

Results

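Hepatocytes from the pericentral side of the mouse liver lobule were compared between mice fasted for 8 h and fed mice, in 3 libraries per state, which are 6 of the 18 RNA sequencing libraries of the study. The 6 libraries were taken by their zone and state labels, with earlier results of these data known. All mice were wild type (WT) C57BL/6J males aged 12 weeks on Normal Chow. For 3 days they had been trained to eat during 8 daytime hours and to fast for the other 16 h, and on the day of the experiment they received chow together with 20% sucrose in the drinking water. Hepatocytes of 1 zone were isolated with digitonin, a detergent that removes the cells of the other zone during perfusion, and total RNA was extracted with RNeasy and TRIzol and made into NEBNext Ultra libraries. Fed mice were killed at clock hour 13, after 4 h of this feeding. The 8 h fasted mice lost both food and sucrose at clock hour 13 and were killed at clock hour 21. Another pericentral group, killed after 24 h at clock hour 13 of the next day, and periportal hepatocytes from the same fed and 8 h states are used for reference. The 8 h comparison joins fasting with a change of clock hour, and within these 6 libraries the contributions of food and of time of day cannot be told apart. The labels do not say whether replicates were separate mice, so the p-values measure only the spread between libraries of a group, which may be technical. That spread was estimated from all 18 libraries.

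Pericentral hepatocytes surround the central vein, where blood leaves the lobule, and are known for glutamine synthesis, drug metabolism by cytochrome P450 enzymes and lipid synthesis. When food is withdrawn, falling insulin and rising glucagon are known to lower the transcription of lipogenic genes through SREBP-1c and ChREBP and to raise that of gluconeogenic genes through CREB and FOXO1. The liver also carries a circadian clock, in which BMAL1 (encoded by Arntl) with CLOCK or NPAS2 drives its own repressors of the Period and Cryptochrome families.

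The 3 fed libraries held 23785077 to 26209114 estimated counts and the 3 libraries from 8 h held 20401186 to 24005657. Levels are given as CPM, counts scaled to the same total in every library, which are not corrected for gene length, so they are compared between libraries and never between genes. Across genes, which are no independent replicates, log2 CPM had r from 0.970 to 0.982 between libraries of 1 group and from 0.959 to 0.967 between libraries of different groups. A principal component analysis of the 6 libraries separated fed from fasted on component 1 (40.2% of the variance). On component 2 (19.9%) replicates 1 and 3 of the 8 h group lay at opposite ends, at -35.6 and 36.8.

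A pair of libraries stood apart from their groups in acute-phase transcripts, which hepatocytes raise in response to inflammatory cytokines. Saa1, a serum amyloid A gene, stood at 12.9, 21.1 and 2096 CPM in fed and 3234, 22.7 and 11.8 CPM in 8 h libraries. Fed replicate 3 and 8 h replicate 1 were therefore far above the other 4 libraries, and Saa2, Lcn2, Orm2 and Hp were highest in the same pair. These genes were singled out after their values were seen. The pair holds 1 library of each state, and for the genes named below each call lost without it, and each change moved by over 1.5 times, is given with its value without the pair. None of those 5 genes was called between the states. The 1 high library in each state widens their spread, so the missing calls do not show equal levels. Other acute-phase genes were called higher at 8 h, among them Fga, Fgb and Fgg, described below, whereas Hpx and Itih4 were not called.

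**Figure D1:**
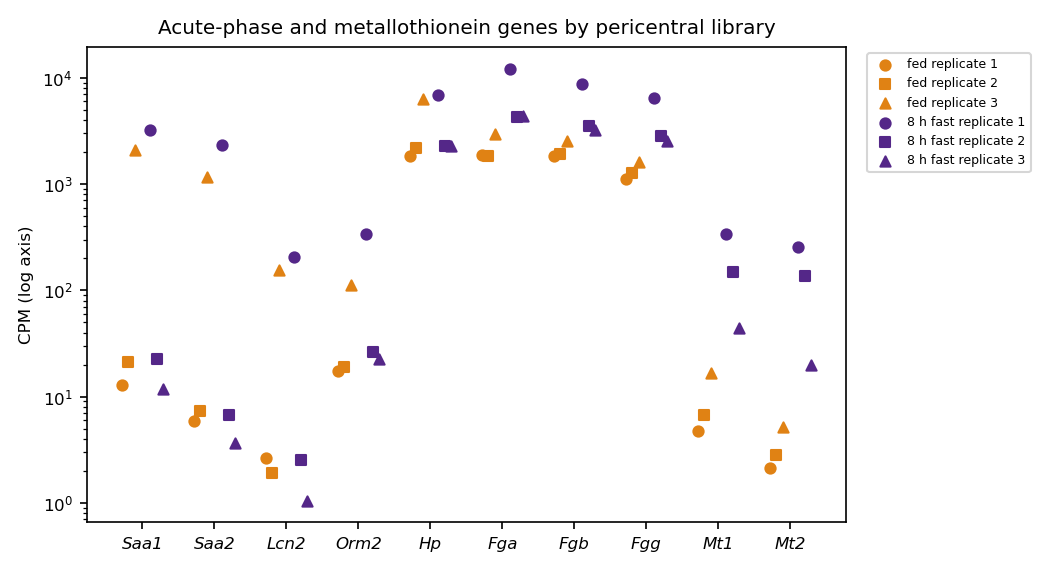
CPM on a log axis of 10 acute-phase and metallothionein genes, with 1 point for each of the 6 pericentral libraries (orange fed, purple 8 h fast, symbol shape for the replicate). Saa1, Saa2, Lcn2 and Orm2 are high in fed replicate 3 and 8 h replicate 1, whereas all 3 of the 8 h libraries lie above all 3 fed ones for Fga, Fgb, Fgg, Mt1 and Mt2.

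The zone label was checked on marker genes. The 12 pericentral markers tested, among them glutamine synthetase (Glul), Cyp2e1 and Axin2, summed to 17400 to 22700 CPM in fed and 11700 to 14500 CPM in 8 h libraries. The 11 periportal markers, among them Cyp2f2 and Gls2, summed to 996 to 1440 CPM and 1400 to 1580 CPM. In the fed state all 12 pericentral markers had higher means and all 11 periportal markers lower means than in the periportal libraries, as the zone label has it. At 8 h the pericentral sum lay lower than in any fed library. None of the 12 pericentral markers was called by edgeR, 9 had log2 fold changes below 0, and 1 (Cyp2a5) had an unadjusted p under 0.05. Of the 11 periportal markers, 10 had log2 fold changes above 0, 3 had an unadjusted p under 0.05 and 1 was called. The called marker was Hal, higher at 8 h (histidine ammonia-lyase, 46.8, 57.7 and 67.1 CPM in fed and 157, 116 and 133 CPM in 8 h libraries, log2 fold change 1.24 ± 0.25 SE, adjusted p = 0.00363). In bulk RNA such shifts do not tell a change in the mix of cells from a change of RNA per cell, and their part in the results below was not tested. Markers of sinusoidal endothelial cells (9 of 10 tested) summed to 4.39 to 6.50 CPM in fed and 6.11 to 10.1 CPM in 8 h libraries. Those of Kupffer cells and leukocytes (8 of 12 tested) summed to 1.56 to 2.38 and 0.698 to 3.36 CPM. Those of stellate cells and fibroblasts (4 of 10 tested) summed to 1.07 to 2.21 and 0.86 to 1.70 CPM. Each of these 3 cell types was thus present at a few CPM. Cholangiocyte markers (2 of 6 tested) summed to 19.4 to 24.9 and 19.9 to 29.5 CPM. The 5 red cell markers summed to 45.6 to 55.1 and 57.2 to 66.7 CPM, nearly all of it from Alas2, while the 4 globin genes were at or near 0. None of the markers of these non-hepatocyte cells was called, and 1 of them, the endothelial Stab2, had an unadjusted p under 0.05.

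Differences were tested with the quasi-likelihood test of edgeR, and every adjusted p below is from that fit, adjusted by the Benjamini-Hochberg method over 12477 genes, with a gene called at an adjusted p under 0.05. Of the genes tested, 7.27% were called higher and 6.57% lower at 8 h, and the median log2 fold change over all genes was 0.01. Among the calls, 267 higher and 219 lower genes differed by more than 1 on the log2 scale. For 16.5% of all genes the 3 libraries of 8 h lay above the 3 fed ones and for 15.7% below. Without fed replicate 3 and 8 h replicate 1 the number called fell from 1727 to 1008 (507 higher and 501 lower), of which 927 were called with all 6 libraries too, and the analysis then rests on 2 libraries per state.

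**Figure D2:**
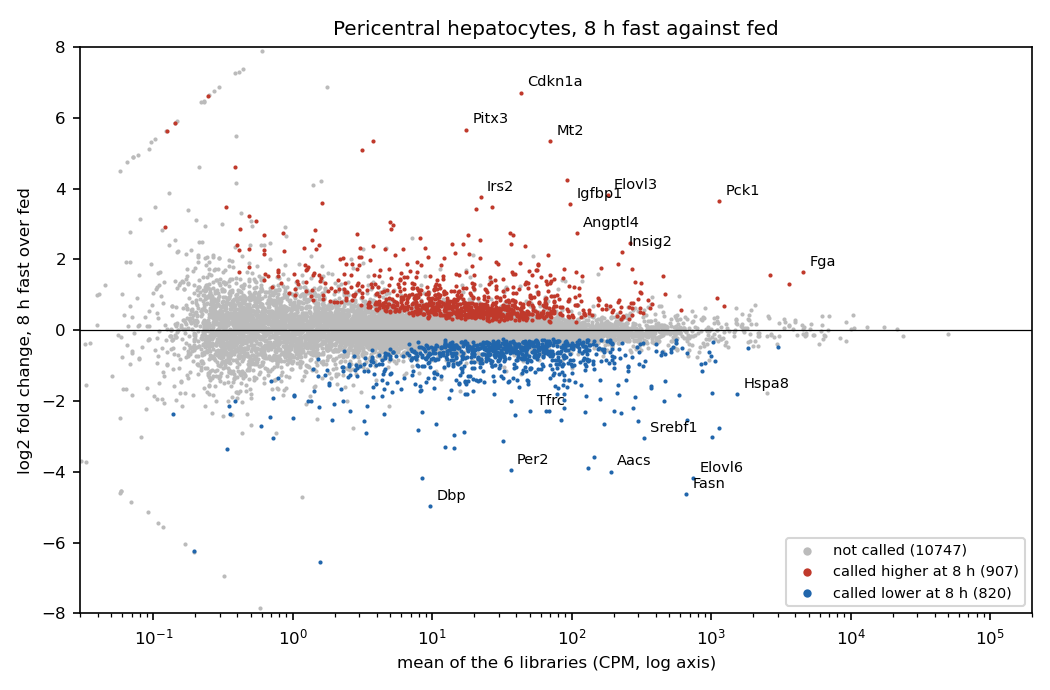
Log2 fold change, 8 h fast over fed, against mean CPM of the 6 pericentral libraries on a log axis, with 1 point per gene: 907 called higher, 820 called lower and the others in grey. Of the genes labelled, Cdkn1a, Pitx3 and Mt2 lie highest and Dbp, Fasn and Elovl6 lowest, while 3 uncalled genes lie outside the vertical axis and 3 genes at 0 in all 6 libraries are not drawn.

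Counts of genes called in 24 lists of pathways and functions are set below beside these shares. The lists were chosen with earlier results of these data known, so the counts describe their members and test no excess over all genes. The lists most often called lower were cholesterol synthesis and uptake (21 of 24 genes tested), de novo lipogenesis (10 of 16), the output of the clock (8 of 12), chaperones of the endoplasmic reticulum (12 of 20) and heat shock chaperones (6 of 12). The list most often called higher held glucocorticoid targets and metallothioneins (6 of 12). The 13 mitochondrially encoded subunits of the respiratory chain had 0 calls, with a median of -0.14, and 0 of them had an unadjusted p under 0.05. DESeq2 and limma-voom called 0 of them as well.

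**Figure D3:**
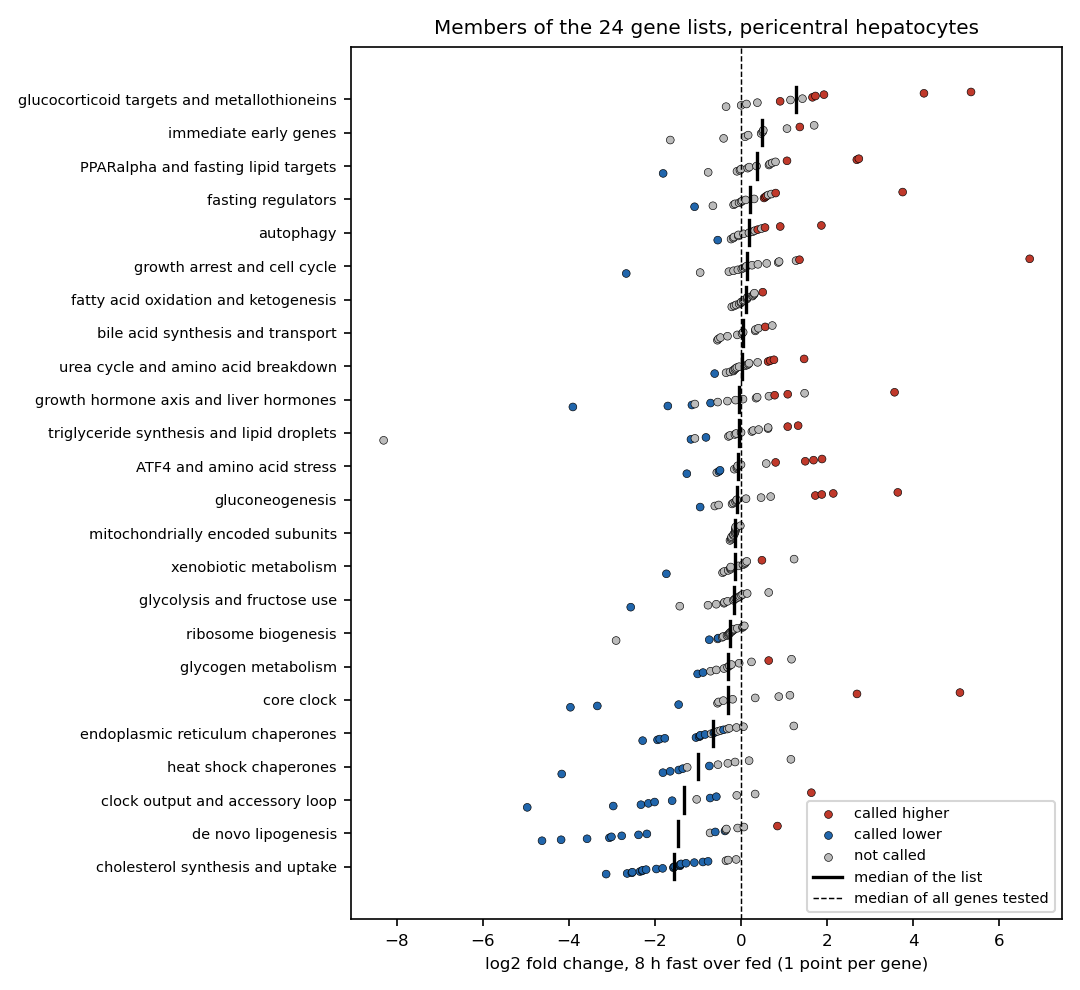
Log2 fold change, 8 h fast over fed, of the tested members of 24 gene lists, with 1 point per gene, red for called higher, blue for called lower and grey for not called; black bars are list medians and the dashed line is the median of all genes. Cholesterol synthesis and lipogenesis lie lowest with medians of -1.55 and -1.45, and the glucocorticoid and metallothionein list lies highest with 1.29. The grey point far left is Plin4, at 0 counts in all 3 of the 8 h libraries, whose fitted value is no measure of size.

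Of the 15 gluconeogenesis genes, 4 were called higher and 1 lower at 8 h, with a list median of -0.10. Pck1, which encodes the cytosolic phosphoenolpyruvate carboxykinase that commits oxaloacetate to glucose, stood at 75.7, 276 and 157 CPM in fed and 2200, 2331 and 1827 CPM in 8 h libraries (log2 fold change 3.64 ± 0.51 SE, adjusted p = 0.00026). The lowest fasted library lay well above the highest fed one, and at 24 h the libraries reached 4791, 4844 and 4825 CPM. Got1, the cytosolic aspartate aminotransferase that supplies oxaloacetate from aspartate, stood at 84.3, 98.7 and 94.1 CPM in fed and 239, 512 and 268 CPM in 8 h libraries (log2 fold change 1.88 ± 0.41 SE, adjusted p = 0.00658). G6pc, the glucose-6-phosphatase that releases free glucose, stood at 112, 143 and 119 CPM in fed and 266, 530.3 and 443 CPM in 8 h libraries (log2 fold change 1.73 ± 0.35 SE, adjusted p = 0.00395). Groups did not overlap for either gene, and their 24 h libraries averaged 599.8 and 617 CPM. Neither was called between 24 h and 8 h (log2 fold changes 0.82 and 0.58, adjusted p = 0.224 and 0.323), and those libraries overlapped. Sds, serine dehydratase, which feeds serine carbon into pyruvate and is a gene of the periportal side, rose from 3.98, 6.70 and 9.50 to 22.8, 32.7 and 33.6 CPM (log2 fold change 2.15 ± 0.44 SE, adjusted p = 0.00483). The single call in the other direction was Slc2a2, the GLUT2 glucose transporter, at 409.7, 377 and 420 CPM in fed and 147, 221 and 258 CPM in 8 h libraries (log2 fold change -0.95 ± 0.20 SE, adjusted p = 0.00355). All 5 calls remained when any 1 of the 6 libraries was left out and without the acute-phase pair. The other 10 genes were not called, among them the pyruvate carboxylase gene Pcx (log2 fold change 0.69 ± 0.34 SE, adjusted p = 0.213) and Fbp1 of the fructose bisphosphatase step (log2 fold change -0.17 ± 0.12 SE, adjusted p = 0.385). Slc37a4, the transporter that carries glucose 6-phosphate to G6pc, was not called either (log2 fold change -0.61 ± 0.24 SE, adjusted p = 0.104).

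The promoter of Pck1 holds a well-known cAMP response element, the site bound by CREB below the glucagon receptor, and is shown because Pck1 had the largest rise of its list. The sequence is from RefSeq on build GRCm38.p6 (chr2:173152960-173153007, plus strand), is written 5′ to 3′ in the direction of transcription, and has the match to TGACGTNA, read on the opposite strand, in capitals.
Pck1: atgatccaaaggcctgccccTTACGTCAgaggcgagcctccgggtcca
The 250 bases before the start site were searched on both strands in 27025 genes, and 2.92% of them held this motif, against 4.76% of the 9621 tested genes with a promoter in the table. Of 13 gluconeogenesis genes with a promoter in the table, Pck1 and the uncalled Mdh2 held it. A match describes letters and does not show binding.

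Among 16 genes of the cAMP, FOXO and insulin signal, 5 were called higher and 1 lower. Irs2, an insulin receptor substrate and a known FOXO1 target, stood at 2.94, 2.99 and 3.27 CPM in fed and 39.2, 49.5 and 35.9 CPM in 8 h libraries (log2 fold change 3.76 ± 0.54 SE, adjusted p = 0.000387). Every fasted library lay far above every fed one, and the 24 h libraries stayed at 42.9, 23.0 and 49.5 CPM. Irs1, the other main substrate, had a log2 fold change of 0.03 ± 0.28 SE. The insulin receptor Insr stood at 100.5, 92.9 and 98.5 CPM in fed and 145, 144 and 144 CPM in 8 h libraries (log2 fold change 0.56 ± 0.08 SE, adjusted p = 0.000167). In the opposite direction Pik3r1, the regulatory subunit of the PI3-kinase that insulin receptor substrates recruit, stood at 110.3, 108 and 100 CPM in fed and 39.1, 52.3 and 59.4 CPM in 8 h libraries (log2 fold change -1.08 ± 0.15 SE, adjusted p = 0.000163). The groups did not overlap for Insr or Pik3r1. The calls of the coactivator Crtc2 (log2 fold change 0.54), of Foxo1 (0.59) and of Klf15 (0.81) were each lost by leaving out a library. This held for Crtc2 without fed replicate 3 (adjusted p = 0.0676), Foxo1 without fed replicate 1, 2 or 3 or 8 h replicate 1 or 2 (adjusted p 0.0667 to 0.109) and Klf15 without fed replicate 1 (adjusted p = 0.0563). The same 3 calls were lost without the acute-phase pair (adjusted p = 0.121, 0.132 and 0.0616). Ppargc1a, the coactivator PGC-1alpha, was not called (log2 fold change 0.71 ± 0.24 SE, adjusted p = 0.0662), nor was Creb3l3 (0.11 ± 0.12 SE).

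**Figure D4:**
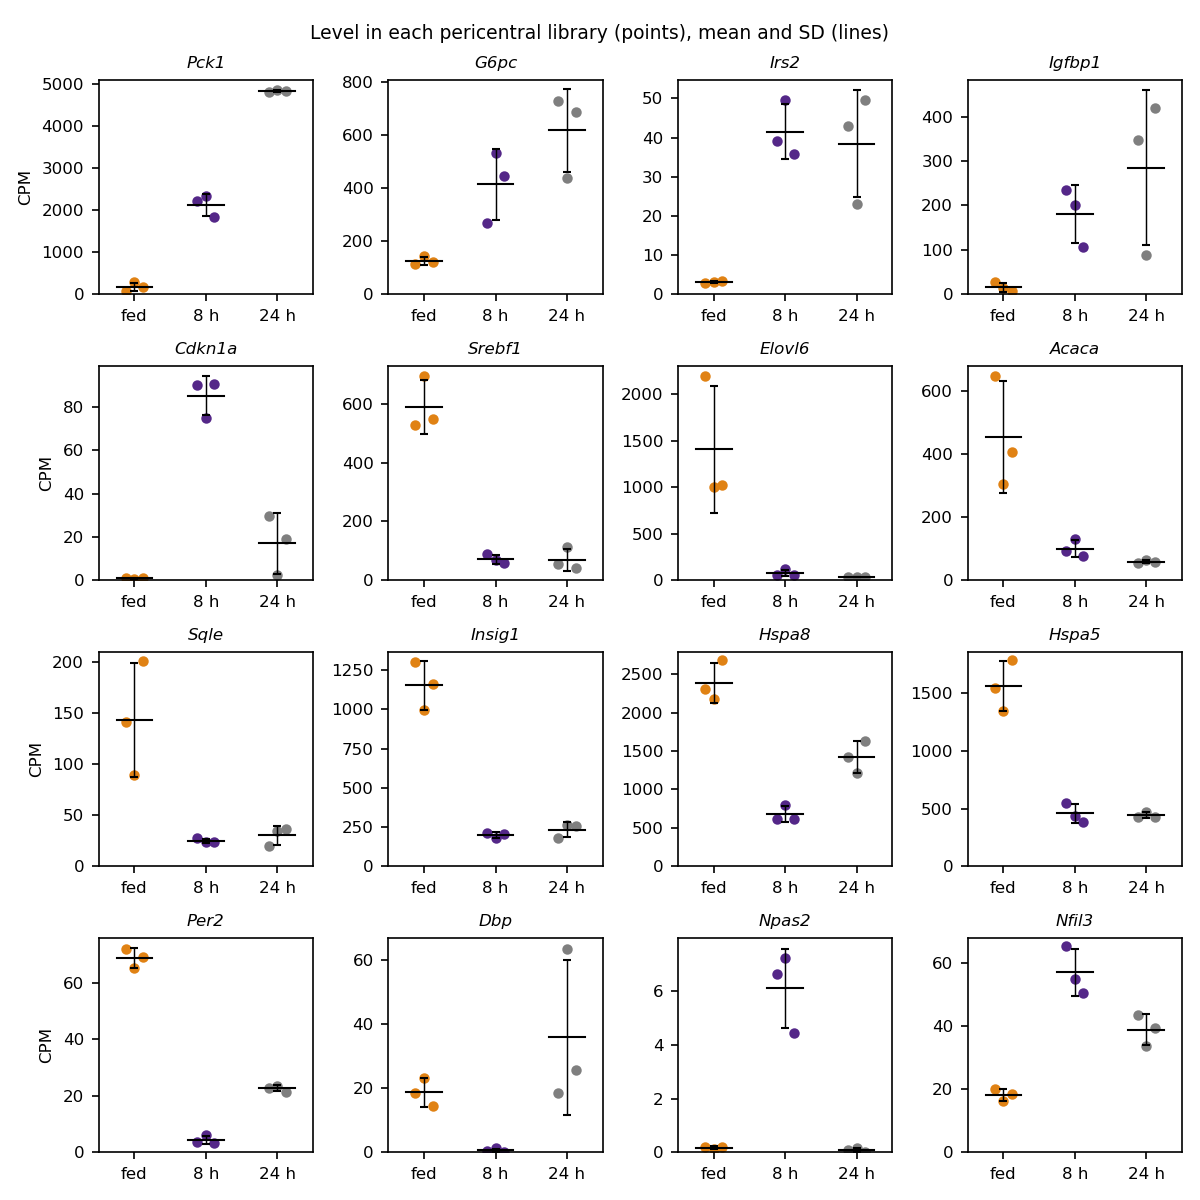
CPM of 16 genes in the pericentral fed, 8 h and 24 h libraries, 3 points per state with the mean and SD. Pck1, G6pc, Irs2 and Igfbp1 lie higher at 8 h, Srebf1, Elovl6, Acaca, Sqle and Insig1 lower, and Per2, Dbp, Npas2 and Nfil3 differ between 8 h and both other states in their means.

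In glycolysis and fructose use, 1 of 16 genes was called, lower, and the list's median log2 fold change was -0.16. The liver pyruvate kinase gene Pklr (log2 fold change -0.77 ± 0.32 SE, adjusted p = 0.133) and Tkfc of fructose breakdown (log2 fold change -0.57 ± 0.21 SE, adjusted p = 0.0798) were not called at 8 h. Pklr averaged 998 ± 282 CPM in fed, 587 ± 200 CPM in 8 h and 99.1 ± 17.2 CPM in 24 h libraries (SD, n = 3 each), and its 24 h value was called below that of 8 h (log2 fold change -2.57, adjusted p = 0.000509). Between 24 h and 8 h, 5.2% of all genes were called higher and 4.51% lower, and 7 of these 16 genes were called lower. Of the 24 h libraries, replicate 2 stood apart with a low level of the pericentral marker Glul (928, 111 and 707 CPM), and without it the number of genes called between 24 h and 8 h went from 1212 to 731. That comparison shares the 8 h libraries with the first, so the changes are set side by side and were not correlated. ChREBP itself (Mlxipl) had a log2 fold change of -0.38 ± 0.25 SE at 8 h.

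De novo lipogenesis turns citrate into fatty acids. Of its 16 genes 10 were called lower and 1 higher, with a median of -1.45. Srebf1, which encodes the insulin-responsive factor SREBP-1c, stood at 528, 695 and 547 CPM in fed and 87.8, 67.3 and 57.9 CPM in 8 h libraries (log2 fold change -3.06 ± 0.37 SE, adjusted p = 7.90e-05). ATP citrate lyase, Acly, which makes cytosolic acetyl-CoA, stood at 2816, 1179 and 2007 CPM in fed and 142, 517 and 221 CPM in 8 h libraries (log2 fold change -2.77 ± 0.55 SE, adjusted p = 0.00419). Acaca, acetyl-CoA carboxylase 1, stood at 650.4, 305 and 408 CPM in fed and 93.0, 130.5 and 76.3 CPM in 8 h libraries (log2 fold change -2.19 ± 0.32 SE, adjusted p = 0.000347). In each of these 3 genes the highest fasted library lay below the lowest fed one. The fatty acid synthase gene Fasn fell by 4.62 and the elongase gene Elovl6 fell by 4.18 on the log2 scale, from means of 1270 and 1408 CPM. The protein that activates acetyl-CoA carboxylase, Mid1ip1, stood at 223, 283 and 293 CPM in fed and 20.9, 22.4 and 23.7 CPM in 8 h libraries (log2 fold change -3.57 ± 0.28 SE, adjusted p = 1.40e-06). Thrsp, its paralog Spot 14, stood at 1778, 1718 and 1883 CPM in fed and 60.8, 348 and 259.5 CPM in 8 h libraries (log2 fold change -3.01 ± 0.64 SE, adjusted p = 0.00634). Fed levels of the enzymes varied more than those of Mid1ip1 and Thrsp, with fed replicate 1 far above fed replicate 2 for Elovl6 and Acly.

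The other 5 lipogenic genes were not called. Scd1, the stearoyl-CoA desaturase, stood at 15280, 5762 and 10130 CPM in fed and 9044, 12640 and 11000 CPM in 8 h libraries (log2 fold change 0.07 ± 0.53 SE, adjusted p = 0.956), with overlapping groups. Acacb, the acetyl-CoA carboxylase at mitochondria that restrains fatty acid entry, had a log2 fold change of -0.08 ± 0.46 SE, malic enzyme Me1 -0.72 ± 0.33 SE and Acss2 -0.34 ± 0.34 SE, none of them called. Against 8 h, the 24 h libraries were called lower for Acacb (log2 fold change -2.81), Me1 (-1.78) and Acss2 (-1.55). Elovl5, an elongase of polyunsaturated fatty acids, was called in the opposite direction at 287, 178 and 297 CPM in fed and 422, 489 and 459.8 CPM in 8 h libraries (log2 fold change 0.85 ± 0.20 SE, adjusted p = 0.0101). Of the 11 calls, 9 remained whichever 1 of the 6 libraries was left out and 8 without the acute-phase pair. Pnpla3 (log2 fold change -2.38) and Slc25a1 (-0.37) lost theirs, Pnpla3 without fed replicate 1 or 3 or 8 h replicate 1, 2 or 3 (adjusted p 0.0657 to 0.13) and Slc25a1 without fed replicate 1, 2 or 3 or 8 h replicate 1 or 2 (adjusted p 0.0503 to 0.163). Without the pair Pnpla3 had a log2 fold change of -2.43 (adjusted p = 0.145), Slc25a1 of -0.24 (adjusted p = 0.33) and the desaturase Fads2, at -0.60 with all libraries, of -0.36 (adjusted p = 0.13), none of them called.

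Cholesterol synthesis and uptake, which SREBP-2 controls, was the list with the most calls, 21 of 24, all lower, with a median of -1.55. Idi1, the isomerase of isopentenyl diphosphate, stood at 315, 349.5 and 469 CPM in fed and 73.7, 66.9 and 82.4 CPM in 8 h libraries (log2 fold change -2.35 ± 0.19 SE, adjusted p = 7.92e-07). Mvd, which makes isopentenyl diphosphate, stood at 64.7, 35.6 and 74.1 CPM in fed and 8.15, 5.81 and 5.92 CPM in 8 h libraries (log2 fold change -3.13 ± 0.26 SE, adjusted p = 1.44e-06). Sqle, squalene epoxidase, stood at 141, 88.9 and 200.3 CPM in fed and 27.3, 23.9 and 23.6 CPM in 8 h libraries (log2 fold change -2.52 ± 0.32 SE, adjusted p = 0.000131). No fasted library reached the lowest fed one in any of these. Insig1, which holds SREBP precursors in the endoplasmic reticulum, stood at 1304, 994 and 1159 CPM in fed and 210.1, 179.8 and 207 CPM in 8 h libraries (log2 fold change -2.54 ± 0.27 SE, adjusted p = 2.08e-05). Aacs, which activates acetoacetate for sterol and fatty acid synthesis and is in none of the lists, stood at 462, 288 and 327 CPM in fed and 11.7, 25.6 and 30.4 CPM in 8 h libraries (log2 fold change -3.99 ± 0.38 SE, adjusted p = 1.44e-05). Tm7sf2, Ebp and the Srebf2 transcript itself were not called, with log2 fold changes of -0.35, -0.30 and -0.11. The change of Hmgcs1, -1.41 with all libraries, was -0.92 without fed replicate 3, which still passed. Single libraries ended the call of Pmvk without fed replicate 1 or 3 or 8 h replicate 1, 2 or 3 (adjusted p 0.0616 to 0.223). Without the acute-phase pair 17 of the 21 calls remained, and Hmgcs1, Pmvk, Fdps and Nsdhl lost theirs (adjusted p = 0.0582, 0.372, 0.118 and 0.0621). Their log2 fold changes without the pair were -0.83, -0.44, -0.89 and -0.84, against -1.41, -0.76, -1.57 and -1.08 with all libraries. Dhcr7, of the last step of the pathway, went from -1.42 to -0.93 without the pair and kept its call. The 24 h libraries stayed low: Sqle averaged 143 ± 55.8 CPM in fed, 24.9 ± 2.07 CPM in 8 h and 30.3 ± 9.14 CPM in 24 h libraries (SD, n = 3 each). Between 24 h and fed, where 10.8% of all genes were called higher and 11.1% lower, 22 of the 24 were called lower. That comparison shares the fed libraries with the first.

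Triglyceride synthesis and lipid droplet genes were called in both directions, 2 higher and 2 lower of 16. Dgat2, which completes triglyceride synthesis, stood at 1195, 1051 and 1299 CPM in fed and 438, 607 and 540.2 CPM in 8 h libraries (log2 fold change -1.16 ± 0.17 SE, adjusted p = 0.000257). Pnpla2, the adipose triglyceride lipase, stood at 39.8, 36.2 and 33.6 CPM in fed and 76.2, 82.2 and 74.6 CPM in 8 h libraries (log2 fold change 1.09 ± 0.14 SE, adjusted p = 7.48e-05). Plin5, a droplet coat protein of oxidative tissues, stood at 38.5, 39.0 and 41.0 CPM in fed and 58.1, 107 and 132 CPM in 8 h libraries (log2 fold change 1.33 ± 0.29 SE, adjusted p = 0.00636). Groups were separate for these 3 genes. The monoglyceride lipase gene Mgll (log2 fold change -0.81) was called lower, and lost that call without the acute-phase pair (adjusted p = 0.0707). Plin4 had 66, 66 and 0 counts in the fed libraries and 0 in each library of 8 h, and was not called.

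In fatty acid oxidation and ketogenesis 1 of 16 genes was called at 8 h, higher, with a list median of 0.11. That gene was Cpt1a, the rate-limiting carnitine palmitoyltransferase, at 216, 285 and 264 CPM in fed and 377, 344 and 366 CPM in 8 h libraries (log2 fold change 0.51 ± 0.15 SE, adjusted p = 0.0286). Its groups were separate, but the call was lost without the acute-phase pair (adjusted p = 0.125) and in 4 cases without 1 library, Cpt1a without fed replicate 1 or 3 or 8 h replicate 1 or 3 (adjusted p 0.0603 to 0.121). At 24 h against fed, 14 of the 16 were called higher, and Cpt1a stood at 732, 720.5 and 582 CPM in the 24 h libraries. Of 15 PPARalpha and fasting lipid targets, 3 were called higher and 1 lower at 8 h. Angptl4, a secreted inhibitor of lipoprotein lipase, stood at 26.9, 25.3 and 32.6 CPM in fed and 148, 204 and 215 CPM in 8 h libraries (log2 fold change 2.74 ± 0.28 SE, adjusted p = 1.51e-05). Slc25a47, a mitochondrial carrier of the liver, stood at 162, 244 and 190.5 CPM in fed and 322, 526 and 404 CPM in 8 h libraries (log2 fold change 1.07 ± 0.20 SE, adjusted p = 0.00139). Both were separated without overlap. Cyp4a10, a fatty acid hydroxylase and a common marker of PPARalpha, had a log2 fold change of -0.02 ± 0.69 SE at 8 h and of 1.94 from 8 h to 24 h (adjusted p = 0.11). Pdk4, which restrains pyruvate oxidation, stood at 9.23, 10.8 and 6.74 CPM in fed and 8.28, 17.5 and 16.8 CPM in 8 h libraries and was not called (log2 fold change 0.67 ± 0.67 SE, adjusted p = 0.59). The neighbouring acyl-CoA thioesterase genes Acot1 (log2 fold change 2.69) and Acot3 (-1.81) were called in opposite directions. They share much of their sequence, so their counts are uncertain, and both calls were lost to single libraries, Acot1 without fed replicate 1 or 3 or 8 h replicate 2 or 3 (adjusted p 0.0524 to 0.0802) and Acot3 without fed replicate 1, 2 or 3 or 8 h replicate 1 or 2 (adjusted p 0.0595 to 0.162). Without the pair that of Acot3 was lost too (adjusted p = 0.151). Crot, a peroxisomal carnitine acyltransferase outside these lists, stood at 227, 289 and 186 CPM in fed and 936, 537 and 548 CPM in 8 h libraries (log2 fold change 1.53 ± 0.33 SE, adjusted p = 0.00631) and lost its call without the acute-phase pair (adjusted p = 0.113).

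Glycogen metabolism had 1 gene called higher and 2 lower of 12. Ugp2, which makes the UDP-glucose used for glycogen, stood at 487, 520.3 and 300.3 CPM in fed and 173, 259.7 and 219 CPM in 8 h libraries (log2 fold change -1.01 ± 0.24 SE, adjusted p = 0.00971). Its groups did not overlap. Glycogen phosphorylase, Pygl, differed by -0.04 ± 0.18 SE and the synthase Gys2 by -0.57 ± 0.19 SE on the log2 scale, neither called. Glycogenin, Gyg (log2 fold change 0.65), was called higher. Single libraries ended the call, Gyg without fed replicate 1 or 2 or 8 h replicate 1 or 2 (adjusted p 0.0795 to 0.143), and so did leaving out the acute-phase pair (adjusted p = 0.141).

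Of 12 core clock genes, 2 were called higher and 3 lower. Npas2, a partner of BMAL1, stood at 0.207, 0.118 and 0.195 CPM in fed and 6.64, 7.25 and 4.45 CPM in 8 h libraries (log2 fold change 5.09 ± 0.42 SE, adjusted p = 1.11e-06). Arntl stood at 3.21, 4.41 and 6.85 CPM in fed and 31.0, 34.6 and 28.0 CPM in 8 h libraries (log2 fold change 2.70 ± 0.36 SE, adjusted p = 0.000152). Per2, a repressor of BMAL1 and its partners, stood at 72.0, 65.1 and 69.03 CPM in fed and 3.77, 6.14 and 3.40 CPM in 8 h libraries (log2 fold change -3.96 ± 0.18 SE, adjusted p = 1.16e-09). Npas2 and Arntl were thus higher and Per2 lower in every fasted library than in any fed one. Per3 stood at 28.1, 25.1 and 24.6 CPM in fed and 1.48, 2.98 and 3.25 CPM in 8 h libraries (log2 fold change -3.34 ± 0.28 SE, adjusted p = 1.78e-06). Nr1d2, the nuclear receptor REV-ERBbeta that represses Arntl, stood at 56.0, 58.5 and 41.7 CPM in fed and 13.6, 20.9 and 22.8 CPM in 8 h libraries (log2 fold change -1.45 ± 0.20 SE, adjusted p = 0.000167). Clock, Cry1 and Per1 were not called, at log2 fold changes of 1.14 ± 0.40, 0.88 ± 0.30 and -0.41 ± 0.17 (SE). With the DESeq2 Wald test, or with only these 6 libraries in the fit, 4 core clock genes were called higher. At 24 h, at the clock hour of the fed mice, Npas2 was at 0.0781, 0.147 and 0 CPM, Arntl at 6.17, 2.83 and 7.27 CPM and Per3 at 18.6, 31.9 and 16.8 CPM, near their fed values, whereas Per2 at 22.9, 23.6 and 21.5 CPM lay between. All 5 calls held without any 1 of the 6 libraries and without the acute-phase pair.

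The output of the clock moved mostly down: 8 of 12 genes were called lower and 1 higher, with a median of -1.31. Dbp, Tef and Hlf encode the PAR-bZIP activators of D-box elements. Dbp fell by 4.96 on the log2 scale. Tef stood at 153, 139 and 126 CPM in fed and 29.1, 63.3 and 45.6 CPM in 8 h libraries (log2 fold change -1.60 ± 0.23 SE, adjusted p = 0.000273). Hlf stood at 71.8, 73.1 and 63.8 CPM in fed and 38.6, 52.7 and 49.1 CPM in 8 h libraries (log2 fold change -0.57 ± 0.13 SE, adjusted p = 0.00809). Both genes were lower in every fasted library than in any fed one. Nfil3, the repressor that competes for the same element, stood at 20.1, 16.3 and 18.5 CPM in fed and 65.2, 55.0 and 50.5 CPM in 8 h libraries (log2 fold change 1.64 ± 0.21 SE, adjusted p = 0.000108). Its change was opposite to those of Dbp, Tef and Hlf. Wee1, a clock-controlled cell-cycle kinase, stood at 29.4, 25.2 and 22.1 CPM in fed and 2.01, 4.23 and 3.60 CPM in 8 h libraries (log2 fold change -2.97 ± 0.30 SE, adjusted p = 1.27e-05). Alas1, the rate-limiting enzyme of haem synthesis, stood at 831, 767 and 591 CPM in fed and 141, 83.7 and 321 CPM in 8 h libraries (log2 fold change -2.00 ± 0.45 SE, adjusted p = 0.00776). Neither overlapped between the states. Against 8 h, 8 of the 12 were called higher at 24 h, and Tef reached 139, 208 and 174 CPM. The calls of Ciart (log2 fold change -2.15) and Noct (-0.71) were lost to single libraries, Ciart without fed replicate 2 or 3 or 8 h replicate 1, 2 or 3 (adjusted p 0.0503 to 0.1) and Noct without fed replicate 1 or 2 or 8 h replicate 1 or 2 (adjusted p 0.0583 to 0.0802). Without the acute-phase pair Ciart, Noct and Alas1 lost theirs (adjusted p = 0.151, 0.117 and 0.056).

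The promoters of 3 clock genes that were called lower are shown with the elements named above, from RefSeq on build GRCm38.p6, 5′ to 3′ in the direction of transcription. Capitals mark the D-box TTATGTAA in Per3 (chr4:151044804-151044882, minus strand) and the E-box CACGTG, the site of BMAL1 and its partners, in Tef (chr15:81802526-81802571, plus strand) and Ciart (chr3:95882247-95882364, minus strand).
Per3: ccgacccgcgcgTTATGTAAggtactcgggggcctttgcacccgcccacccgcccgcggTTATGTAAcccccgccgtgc
Tef: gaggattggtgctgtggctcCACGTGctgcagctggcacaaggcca
Ciart: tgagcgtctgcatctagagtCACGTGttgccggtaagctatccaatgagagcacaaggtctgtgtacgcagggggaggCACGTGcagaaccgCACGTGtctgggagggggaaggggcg
The stretch of Per3 holds 2 D-boxes and that of Ciart 3 E-boxes. Over all 27025 genes, 0.977% held a D-box and 6.86% an E-box in the same window, on either strand, against 0.592% and 9.64% of the 9621 tested ones. Of 10 core clock genes with a promoter in the table, the uncalled Per1 and Cry1 held an E-box and the called Per3 a D-box. Among the 4 called core clock genes with a promoter, 0 held an E-box. Of 10 output genes Tef, Ciart and the uncalled Bhlhe41 held an E-box, which makes 2 of the 7 called (28.6%). The share among called cholesterol genes was the same, 4 of 14 (28.6%). No match says only that these letters are not in this window.

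Glucocorticoid targets and metallothioneins were called higher in 6 of 12 genes and lower in 0, with a median of 1.29. Klf9, a transcription factor induced by glucocorticoids, stood at 37.0, 45.3 and 39.4 CPM in fed and 125, 131 and 148 CPM in 8 h libraries (log2 fold change 1.73 ± 0.14 SE, adjusted p = 9.82e-07). Errfi1, a feedback inhibitor of the epidermal growth factor receptor, stood at 1091, 515 and 702 CPM in fed and 1549, 1323 and 1470 CPM in 8 h libraries (log2 fold change 0.91 ± 0.22 SE, adjusted p = 0.00893). Mt1, a zinc-binding metallothionein, stood at 4.70, 6.70 and 16.6 CPM in fed and 340, 147 and 44.0 CPM in 8 h libraries (log2 fold change 4.25 ± 0.75 SE, adjusted p = 0.0019), and its neighbour Mt2 moved with it (log2 fold change 5.34 ± 0.93 SE). Mt1 and Mt2 are near copies whose counts could be split between them, and within each state both were highest in the library of the acute-phase pair. The groups of Klf9, Mt1 and Mt2 did not overlap, but Mt1, Mt2 and Errfi1 were not called with only these 6 libraries in the fit. Zbtb16 (log2 fold change 1.93) was called higher. Single libraries ended that call, Zbtb16 without fed replicate 1 or 3 or 8 h replicate 1, 2 or 3 (adjusted p 0.0604 to 0.114). Without the acute-phase pair Sgk1, Zbtb16 and Errfi1 lost their calls (adjusted p = 0.0788, 0.11 and 0.1). The classical targets Tsc22d3, Dusp1 and Fkbp5 were not called, with log2 fold changes of 0.13 ± 0.30, 0.01 ± 0.47 and 1.43 ± 0.47 (SE), and the receptor gene Nr3c1 had -0.34 ± 0.12.

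Growth arrest and cell cycle genes were called in 3 of 17 cases, 2 higher and 1 lower. Cdkn1a, the cyclin-dependent kinase inhibitor p21, stood at 0.899, 0.473 and 1.05 CPM in fed and 90.1, 75.0 and 90.8 CPM in 8 h libraries (log2 fold change 6.71 ± 0.86 SE, adjusted p = 0.000185), the largest rise among the genes chosen for size. Its 24 h libraries were at 29.9, 2.17 and 18.9 CPM (log2 fold change from 8 h -2.33, adjusted p = 0.0379). Mdm2 and Ccng1, which p53 drives together with Cdkn1a, were not called, with log2 fold changes of 0.11 ± 0.12 and 0.26 ± 0.13 (SE). Gadd45a stood at 12.6, 20.0 and 22.4 CPM in fed and 3.15, 3.86 and 1.70 CPM in 8 h libraries (log2 fold change -2.66 ± 0.46 SE, adjusted p = 0.00139). Cdk1, a kinase of dividing cells, was called higher from 16, 19 and 20 counts in fed and 31, 54 and 41 counts in 8 h libraries, while Mki67 and Top2a were not called. Of the 10 immediate early genes tested, which respond within minutes to stress and tissue handling, 1 was called, Junb (log2 fold change 1.37), and single libraries ended the call, Junb without fed replicate 1 or 3 or 8 h replicate 1 or 3 (adjusted p 0.0771 to 0.134), as did leaving out the acute-phase pair (adjusted p = 0.295). Fos stood at 7.43, 7.72 and 3.08 CPM in fed and 22.9, 6.09 and 9.32 CPM in 8 h libraries, with overlapping groups. Egr1 stood at 10.2, 7.80 and 6.62 CPM in fed and 48.9, 12.9 and 18.3 CPM in 8 h libraries, separate between the states but not called (log2 fold change 1.70 ± 0.70 SE, adjusted p = 0.134).

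Heat shock chaperones were called lower in 6 of 12 genes and higher in 0, with a median of -0.99. Hspa8, the constitutive HSC70, stood at 2305, 2181 and 2679 CPM in fed and 621, 802 and 617 CPM in 8 h libraries (log2 fold change -1.81 ± 0.22 SE, adjusted p = 5.48e-05). Hsp90aa1, the inducible HSP90, stood at 540, 499 and 646 CPM in fed and 159, 224 and 156 CPM in 8 h libraries (log2 fold change -1.64 ± 0.26 SE, adjusted p = 0.000541). Dnaja1, a cochaperone of HSC70, stood at 657, 751 and 624 CPM in fed and 212, 242 and 292 CPM in 8 h libraries (log2 fold change -1.45 ± 0.18 SE, adjusted p = 5.77e-05). None of these genes overlapped between the states. Hspa8 was called higher again at 24 h than at 8 h (log2 fold change 1.06, adjusted p = 0.0068), whereas Hsp90aa1 stayed at 208, 142 and 181 CPM. Hsph1, HSP110, fell from 345, 355 and 558 counts to 0, 60 and 0 counts, and this call was lost by leaving out a library, Hsph1 without fed replicate 1, 2 or 3 or 8 h replicate 1 or 3 (adjusted p 0.0639 to 0.111). Without the acute-phase pair 4 of the 6 calls remained, those of Hsph1 and Hsp90ab1 being lost (adjusted p = 0.223 and 0.108). The mitochondrial chaperones Hspd1 and Hspe1 were not called, at log2 fold changes of -0.14 and -0.30.

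Chaperones and quality control of the endoplasmic reticulum were called lower in 12 of 20 genes and higher in 0, with a median of -0.66. Hspa5, which encodes BiP, the main chaperone of the compartment, stood at 1546, 1346 and 1782 CPM in fed and 549.7, 436 and 387 CPM in 8 h libraries (log2 fold change -1.77 ± 0.19 SE, adjusted p = 1.44e-05). Hyou1, its nucleotide exchange factor, stood at 464, 360.5 and 516 CPM in fed and 167, 101 and 94.1 CPM in 8 h libraries (log2 fold change -1.89 ± 0.24 SE, adjusted p = 9.37e-05). In both genes all fasted libraries lay below all fed ones. Creld2, a disulfide isomerase-like protein of the stress response, stood at 112, 91.7 and 137 CPM in fed and 31.0, 21.8 and 17.2 CPM in 8 h libraries (log2 fold change -2.28 ± 0.24 SE, adjusted p = 2.20e-05). The secreted factor Manf stood at 229.8, 215 and 316 CPM in fed and 98.5, 51.6 and 48.5 CPM in 8 h libraries (log2 fold change -1.94 ± 0.25 SE, adjusted p = 0.000131). Manf and Creld2 did not overlap between the states. Hsp90b1 (GRP94) and Pdia4 differed by -0.94 ± 0.17 and -1.04 ± 0.23 (log2 fold change, SE), while Xbp1, Calr and Pdia6 were not called, at -0.54, -0.47 and -0.10. Canx (log2 fold change -0.40) and Dnajb9 (-0.83) lost their calls to single libraries, Canx without fed replicate 3 or 8 h replicate 2 (adjusted p 0.0579 to 0.0615) and Dnajb9 without fed replicate 1, 2 or 3 or 8 h replicate 2 or 3 (adjusted p 0.055 to 0.124). The change of Dnajb9 was -1.30 without 8 h replicate 1 and -1.34 without the acute-phase pair. Of the 12 calls 11 remained without the pair, that of Canx being lost (adjusted p = 0.102). At 24 h Hspa5 was at 427, 470 and 425 CPM, and 18 of the 20 genes were called lower than in fed libraries.

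The endoplasmic reticulum stress element, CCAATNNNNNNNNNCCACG, which ATF6 binds with NF-Y, is shown in capitals in the promoters of the 5 genes called lower that hold it. The stretches are from RefSeq on build GRCm38.p6, written 5′ to 3′ in the direction of transcription, and the element can read on either strand: Hspa5 (chr2:34772013-34772055, plus strand), Hsp90b1 (chr10:86705521-86705668, minus strand), Canx (chr11:50325788-50325830, minus strand), Creld2 (chr15:88819508-88819550, plus strand) and Syvn1 (chr19:6046520-6046562, plus strand).
Hspa5: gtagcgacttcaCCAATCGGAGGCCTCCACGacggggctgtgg
Hsp90b1: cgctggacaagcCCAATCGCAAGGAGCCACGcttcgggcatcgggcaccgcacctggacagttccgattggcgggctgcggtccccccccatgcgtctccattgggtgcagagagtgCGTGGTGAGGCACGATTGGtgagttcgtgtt
Canx: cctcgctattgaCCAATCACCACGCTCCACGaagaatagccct
Creld2: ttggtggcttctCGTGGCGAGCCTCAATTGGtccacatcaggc
Syvn1: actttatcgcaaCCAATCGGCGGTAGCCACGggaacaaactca
The element begins 65 bases before the start site in Hspa5 and 44 in Syvn1, and Hsp90b1 holds 2 copies. It was found in 0.13% of all 27025 promoters and 0.166% of those of the 9621 tested genes, in 9 of the 18 genes of this list with a promoter in the table, and in 5 of the 10 of these called lower. The other 4 genes with the element, Pdia6, Calr, Dnajc3 and Derl3, were not called, so genes with the element were found among both the called and the uncalled ones.

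Genes of ATF4 and amino acid stress were called in both directions, 4 higher and 3 lower of 14. Sesn2, a leucine sensor that restrains mTORC1, stood at 4.42, 3.31 and 4.21 CPM in fed and 14.2, 10.2 and 9.24 CPM in 8 h libraries (log2 fold change 1.49 ± 0.20 SE, adjusted p = 0.000131). Trib3, a pseudokinase that binds AKT, stood at 1.73, 1.97 and 2.26 CPM in fed and 7.09, 6.98 and 5.14 CPM in 8 h libraries (log2 fold change 1.69 ± 0.29 SE, adjusted p = 0.000865). Ddit3, which encodes CHOP, stood at 9.51, 8.94 and 11.7 CPM in fed and 4.01, 4.65 and 3.94 CPM in 8 h libraries (log2 fold change -1.26 ± 0.19 SE, adjusted p = 0.000312). Of the amino acid synthesis targets of ATF4, Asns, Psat1 and Phgdh were not called, with log2 fold changes of -0.07, -0.10 and 0.00. The other 4 calls were lost by leaving out single libraries, Atf4 (log2 fold change -0.51), Cebpg (-0.48), Atf5 (0.81) and Chac1 (1.88). This was so for Atf4 without fed replicate 1 or 8 h replicate 2 or 3 (adjusted p 0.0823 to 0.102) and Cebpg without fed replicate 1 or 8 h replicate 2 (adjusted p 0.0511 to 0.0594). It was also so for Atf5 without fed replicate 2 or 8 h replicate 1 (adjusted p 0.129 to 0.132) and Chac1 without fed replicate 2 or 3 or 8 h replicate 1 (adjusted p 0.0711 to 0.101). Chac1 had a log2 fold change of 1.14 (adjusted p = 0.263) without the acute-phase pair and Atf5 of 0.80 (adjusted p = 0.111), neither called.

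In the urea cycle and amino acid breakdown 4 of 18 genes were called higher and 1 lower. Gldc, the glycine decarboxylase, stood at 41.0, 35.5 and 61.2 CPM in fed and 109.8, 140.5 and 131 CPM in 8 h libraries (log2 fold change 1.47 ± 0.20 SE, adjusted p = 0.000108). Cbs, cystathionine beta-synthase, stood at 204, 185 and 220.1 CPM in fed and 386, 319 and 334 CPM in 8 h libraries (log2 fold change 0.77 ± 0.13 SE, adjusted p = 0.000705). Both were separate between the states and both calls held without any single library. Arg1, the arginase of the urea cycle, stood at 712, 1012 and 1141 CPM in fed and 1309, 1654 and 1642 CPM in 8 h libraries (log2 fold change 0.68 ± 0.18 SE, adjusted p = 0.019). Its call depended on single libraries, as did that of Aass (log2 fold change 0.63). They were lost for Arg1 without fed replicate 1 or 8 h replicate 2 or 3 (adjusted p 0.0613 to 0.0893) and Aass without fed replicate 1, 2 or 3 or 8 h replicate 2 or 3 (adjusted p 0.0707 to 0.184). Aass was not called without the acute-phase pair either (adjusted p = 0.0847). Cps1, Otc, Ass1 and Asl were not called, at log2 fold changes from -0.14 to 0.14.

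Autophagy genes were called in 5 of 15 cases, 4 higher and 1 lower. Wipi1, an early autophagosome protein, stood at 17.3, 12.9 and 14.4 CPM in fed and 30.0, 31.1 and 22.9 CPM in 8 h libraries (log2 fold change 0.91 ± 0.18 SE, adjusted p = 0.00251). Map1lc3b, the LC3 coat of the membrane, stood at 79.1, 76.5 and 88.8 CPM in fed and 114, 105 and 101 CPM in 8 h libraries (log2 fold change 0.39 ± 0.09 SE, adjusted p = 0.00855). Depp1 (log2 fold change 1.87), a FOXO target, Atg2a (0.56) and Bnip3 (-0.54), a mitophagy receptor called lower, lost their calls to single libraries, Depp1 without fed replicate 1 or 3 or 8 h replicate 1 or 2 (adjusted p 0.0921 to 0.156), Atg2a without fed replicate 2 (adjusted p = 0.0515) and Bnip3 without fed replicate 2 or 3 or 8 h replicate 1 or 2 (adjusted p 0.0543 to 0.109). The change of Depp1 without the acute-phase pair was 1.21 (adjusted p = 0.34), and Atg2a and Bnip3 lost their calls as well (adjusted p = 0.0929 and 0.165). Of 19 ribosome biogenesis genes 2 were called lower. Nop2, a methyltransferase of ribosomal RNA, stood at 28.4, 27.2 and 27.4 CPM in fed and 19.5, 18.6 and 19.3 CPM in 8 h libraries (log2 fold change -0.53 ± 0.11 SE, adjusted p = 0.00489). Rrp12 had a log2 fold change of -0.74, and single libraries ended its call, Rrp12 without fed replicate 1 or 2 or 8 h replicate 1 or 2 (adjusted p 0.0508 to 0.0851), as did leaving out the pair (adjusted p = 0.135). The median of that list was -0.26, and 11 of its 19 genes had all 3 fasted libraries below all 3 fed ones, against 15.7% of all genes.

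Hormones and the growth hormone axis were called in 7 of 16 genes, 3 higher and 4 lower. Angptl8, an insulin-responsive regulator of lipoprotein lipase, stood at 144, 245 and 352 CPM in fed and 13.5, 14.9 and 21.0 CPM in 8 h libraries (log2 fold change -3.90 ± 0.46 SE, adjusted p = 0.000105). It moved opposite to Angptl4, named above. Igfbp1, which binds insulin-like growth factors and is a known FOXO1 target, stood at 26.1, 12.8 and 6.66 CPM in fed and 235, 200.2 and 107 CPM in 8 h libraries (log2 fold change 3.57 ± 0.76 SE, adjusted p = 0.00681). Inhba, a subunit of activin, stood at 27.4, 12.6 and 22.3 CPM in fed and 7.91, 5.16 and 6.11 CPM in 8 h libraries (log2 fold change -1.70 ± 0.31 SE, adjusted p = 0.00172). Stat5b, which carries the growth hormone signal, stood at 33.4, 38.1 and 37.0 CPM in fed and 62.7, 70.4 and 53.6 CPM in 8 h libraries (log2 fold change 0.78 ± 0.15 SE, adjusted p = 0.00208). No library of one state reached the other in these 4 genes. Igf1 was not called (log2 fold change -0.12 ± 0.15 SE, adjusted p = 0.668), nor was Fgf21, the fasting hormone, at 2.25, 1.26 and 3.27 CPM in fed and 0.696, 1.40 and 1.90 CPM in 8 h libraries. The calls of Igfals (log2 fold change -0.71), Socs2 (1.09) and Inhbe (-1.14) were lost to single libraries, Igfals without fed replicate 3 or 8 h replicate 1 or 2 (adjusted p 0.0882 to 0.119), Socs2 without fed replicate 2 or 3 or 8 h replicate 1 or 3 (adjusted p 0.0776 to 0.141) and Inhbe without fed replicate 2 or 3 or 8 h replicate 1 or 2 (adjusted p 0.0768 to 0.128). Igfals had a log2 fold change of -0.38 (adjusted p = 0.316) without the acute-phase pair. Igfbp1, Socs2 and Inhbe lost their calls without it too (adjusted p = 0.072, 0.197 and 0.208).

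Bile acid and xenobiotic genes had few calls. Of 12 bile acid genes 1 was called by edgeR, the exporter Abcb11 (log2 fold change 0.56), and single libraries ended its call, Abcb11 without fed replicate 2 or 3 or 8 h replicate 3 (adjusted p 0.0848 to 0.102), as did leaving out the acute-phase pair (adjusted p = 0.101). Cyp7a1, the rate-limiting enzyme, was not called (log2 fold change -0.55 ± 0.69 SE, adjusted p = 0.68). Of 14 xenobiotic genes, Abcb1a, a drug efflux pump, stood at 7.19, 10.8 and 5.96 CPM in fed and 1.39, 2.33 and 3.44 CPM in 8 h libraries (log2 fold change -1.73 ± 0.33 SE, adjusted p = 0.00219). The receptor PXR, Nr1i2 (log2 fold change 0.49), was called higher. Its call was lost for Nr1i2 without 8 h replicate 3 (adjusted p = 0.0559). Cyp3a11 and Cyp2c29 were not called.

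Among the genes taken for the size of their difference, several were in none of the lists. Pitx3, a homeobox transcription factor, rose from 27, 12 and 15 counts to 661, 806 and 988 counts and its periportal levels moved likewise, from 0.0909 ± 0.0168 to 7.50 ± 4.84 CPM (SD, n = 3 each). Elovl3, an elongase of very long fatty acids, stood at 20.7, 19.5 and 31.5 CPM in fed and 250, 379 and 384 CPM in 8 h libraries (log2 fold change 3.82 ± 0.73 SE, adjusted p = 0.00347). Nlrp12, a NOD-like receptor, stood at 3.35, 2.99 and 4.17 CPM in fed and 44.6, 33.8 and 34.1 CPM in 8 h libraries (log2 fold change 3.42 ± 0.26 SE, adjusted p = 7.92e-07). Slc8b1, a mitochondrial sodium-calcium exchanger, stood at 7.88, 10.2 and 9.81 CPM in fed and 63.1, 74.1 and 51.7 CPM in 8 h libraries (log2 fold change 2.76 ± 0.17 SE, adjusted p = 6.94e-08). All were separate between the states, which the rule for naming them required. Clpx, the unfoldase subunit of a mitochondrial protease, stood at 67.4, 88.8 and 83.8 CPM in fed and 429, 497 and 398 CPM in 8 h libraries (log2 fold change 2.46 ± 0.19 SE, adjusted p = 7.92e-07). The 3 fibrinogen chain genes moved together: Fga stood at 1861, 1824 and 2979 CPM in fed and 12200, 4286 and 4404 CPM in 8 h libraries (log2 fold change 1.65 ± 0.32 SE, adjusted p = 0.00273), with Fgb at a log2 fold change of 1.30 ± 0.30 and Fgg at 1.57 ± 0.29 (SE). Their highest library was 8 h replicate 1, and without it the changes of Fga, Fgb and Fgg were 0.97, 0.67 and 1.01, all still called. Without the acute-phase pair Fgb was at 0.83, still called. With only these 6 libraries in the fit Fga and Fgb were not called.

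Scara5 and Ftl1 were named by the same rule. Scara5, a ferritin receptor, stood at 1.52, 3.03 and 8.88 CPM in fed and 58.6, 60.8 and 28.9 CPM in 8 h libraries (log2 fold change 3.47 ± 0.97 SE, adjusted p = 0.0298). Ftl1, the ferritin light chain, which has many processed copies in the genome, stood at 3754, 3355 and 3428 CPM in fed and 2176, 2495 and 2952 CPM in 8 h libraries (log2 fold change -0.47 ± 0.15 SE, adjusted p = 0.0459). Both calls were lost to single libraries, Scara5 without fed replicate 1 or 2 or 8 h replicate 1 or 2 (adjusted p 0.0638 to 0.107) and Ftl1 without fed replicate 1, 2 or 3 or 8 h replicate 1 or 2 (adjusted p 0.0791 to 0.169). Chrna4, a nicotinic receptor subunit, fell from 849, 156 and 820 counts to 42, 79 and 38 counts, and lost its call likewise, Chrna4 without 8 h replicate 1 or 3 (adjusted p 0.0582 to 0.0609). All 3 of these calls were lost without the acute-phase pair (adjusted p = 0.0637, 0.226 and 0.131).

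Periportal hepatocytes of the same states gave a second set of 6 libraries that shares none with the first. The calls came from the fit of all 18 libraries, whose filter and estimate of spread also used the periportal ones. The shares separated in the same direction are therefore not independent of the calls. The zone difference, the periportal change minus the pericentral change, was called for 0% of the 12477 genes by edgeR, and 680 genes had an unadjusted p under 0.05. The limma-voom fit also called 0 genes and the DESeq2 Wald test called 6. Of 141 called list members and genes named for size, the periportal fasted and fed libraries were separated in the same direction as the pericentral ones in 116, overlapped in 25 and were separated in the opposite direction in 0. Of all 12477 genes, 15.8% were separated higher and 15.7% lower at 8 h in the periportal libraries. Of all 1727 genes called in pericentral hepatocytes 77% were separated the same way there. For Pck1 the zone difference was -1.73 ± 0.65 SE (adjusted p = 0.909), with periportal means of 1240 ± 847 and 4662 ± 1850 CPM (SD, n = 3 each). For Srebf1 it was -0.73 ± 0.48 SE, for Sqle 0.42 ± 0.43 SE, for Per2 0.45 ± 0.24 SE and for Hspa5 0.31 ± 0.26 SE. Angptl4 had the smallest unadjusted p of the genes in these lists (0.000928), with a zone difference of 1.53 ± 0.37 SE and periportal means of 13.9 ± 2.89 and 268 ± 40.8 CPM against pericentral means of 28.2 ± 3.85 and 189 ± 35.9 CPM (SD, n = 3 each). A zone difference that misses the threshold does not show that the zones respond alike.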

How the data were processed

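For the 18 libraries the authors deposited estimated counts in 1 table, made with kallisto 0.46.0 and build mm10, per the submitters' processing notes. Use of strand and the annotation are not given in the sources used here, so near-identical copies (Mt1 and Mt2, the Acot, Saa and Hspa1 families) and overlapping or antisense genes are uncertain. Between 67.5% and 70.5% of a library's values were whole (tolerance 1e-09), and all were rounded to whole numbers. Of 28030 genes, 27566 had a symbol, and 12477 passed filterByExpr of edgeR 4.0.16 in R 4.3.3. A single quasi-likelihood fit (TMM, robust) held all 18 libraries in 6 groups of 3, with Benjamini-Hochberg adjustment over all tested genes and calls at 0.05. SE, the standard error, is the log2 fold change divided by the square root of F. CPM are TMM-scaled. The 375 promoter queries on build GRCm38.p6 used RefSeq starts, and 295 matched. Heat shock, sterol and metal response elements were searched too. Of the 9621 tested genes, 0.447%, 1.29% and 56.5% held them. Among heat shock chaperones, 0 of 3 called genes with a promoter held the heat shock element, whereas the uncalled Hspd1 and Hspe1 did. The sterol element was in 1 of 14 called cholesterol and 0 of 11 called lipogenic genes. The metal element was in 4 of 5 called genes of the glucocorticoid and metallothionein list.

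The 6 libraries, the gene lists and the rules were chosen with earlier results of these data known. Beside list members, the genes named were the 12 of largest log2 fold change and the 8 of largest CPM difference in each direction, among called genes whose higher state averaged 10 CPM or more, with no overlap of libraries and no predicted or pseudogene symbol (37 genes). The fit was tested on simulated counts with known changes in 200 genes. It called 69% of the changes of 1 and 89% of those of 2 on the log2 scale, with 5 false among 163 calls. A gene that was not called may therefore still differ. Some genes of the lists are not reported here by name. Alternatives included DESeq2 1.42.0 and limma 3.58.1. No 2 of the 6 pericentral fed and 8 h libraries were alike within sampling noise, and the other libraries were not compared in this way.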

Additional observations from a re-analysis of the deposited data

How the results depend on the processing

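Counts of called genes are given in the order 8 h against fed, 24 h against 8 h, and 24 h against fed, from 1727, 1212 and 2726. They were 1743, 1220 and 2737 with DESeq2 size factors, 1436, 886 and 2281 without a filter beyond a total of 1 count, 1765, 1245 and 2693 with a mean of at least 1 CPM, 1731, 1195 and 2717 with scaling without the 20 most abundant genes, 2067, 1580 and 3011 with the DESeq2 Wald test, and 1790, 1176 and 2789 with limma-voom. With only the groups compared in the fit they were 1514, 617 and 2298. The zone difference had 0 calls in these settings, other than 6 with DESeq2 (Angptl4, Prpf4b, Irf5, Birc2, Krt83 and Gm14440). For Birc2, Krt83 and Gm14440 the DESeq2 zone differences were extreme, at -22.1, 17.4 and 26.1 on the log2 scale. Their edgeR values were -8.43, 3.73 and 12.1, with unadjusted p = 0.13, 0.594 and 0.0224 in edgeR. Leaving out 1 of the 18 libraries at a time gave 1233 to 1836, 534 to 1276 and 1905 to 2864 calls and 0 to 3 for the zone difference, the 3 without pericentral 8 h replicate 3 and 1 without pericentral 24 h replicate 2. The count for 24 h against 8 h fell by over 1.5 times without 8 h replicate 1 (534) or 2 (670) or 24 h replicate 2 (731) or 3 (547). Leaving out fed replicate 3 and 8 h replicate 1 together, chosen after seeing the data, gave 1008, 526 and 2118 calls and 0 for the zone difference, with fewer libraries to test on. Same-numbered pericentral fed and 8 h libraries deviated from their group means with correlations of -0.085, 0.059 and -0.12. These 3 values are too few to tell whether replicate numbers pair the libraries, and other groups were not examined. A replicate block gave 1785, 1282 and 2760 calls. No result reversed. For the 37 genes named for size, 312 of the values under alternatives other than leaving out 1 library kept their direction and call and 21 lost the call, 8 of them with only the groups compared in the fit (Mt1, Mt2, Fga, Fgb, Errfi1, Hsph1, Chrna4 and Ftl1) and 7 without the acute-phase pair. Leaving out 1 library gave 633 and 33. Among counts of list members that moved by over 1.5 times, glucocorticoid targets and metallothioneins went from 6 higher to 3, liver hormones from 4 lower to 2 and core clock from 2 higher to 4 with only the groups compared, core clock also to 4 and hormones from 3 to 5 higher with DESeq2, and without the pair clock output went from 8 to 5 lower and ATF4 and autophagy genes each from 4 to 2 higher. Causes were not tested. The number of libraries, 3 per state, limits the precision of every comparison.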

Other observations

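Other genes outside the lists were called between 8 h and fed and were chosen after their values were seen, so their levels are given without a test. Insig2, the partner of Insig1 in holding SREBP precursors, stood at 74.9, 91.1 and 80.4 CPM in fed and 336, 444 and 357 CPM in 8 h libraries, the opposite direction to Insig1 in the report. Its 24 h libraries were at 203, 92.0 and 147 CPM. The transferrin receptor gene Tfrc, which takes up iron, stood at 82.9, 96.6 and 72.0 CPM in fed and 24.3, 13.9 and 13.1 CPM in 8 h libraries and at 14.1, 17.6 and 20.0 CPM after 24 h. Nampt, the rate-limiting enzyme of NAD salvage and a known target of the clock, stood at 114, 119.7 and 106 CPM in fed and 29.4, 49.5 and 65.1 CPM in 8 h libraries, and at 164, 189.9 and 181 CPM after 24 h. Rbm3, a cold-inducible RNA-binding protein that follows the daily cycle of body temperature, stood at 52.6, 62.1 and 67.0 CPM in fed and 37.5, 34.0 and 31.6 CPM in 8 h libraries, and at 63.4, 72.1 and 88.4 CPM after 24 h. None of these 4 genes overlapped between the fed and 8 h libraries, which tests nothing because they were picked with their values in view. Over all genes tested, 16.5% were separated higher and 15.7% lower at 8 h.

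The next 9 genes were picked singly and stand for no group. Stip1, which bridges HSP70 and HSP90, stood at 156, 135 and 176 CPM in fed and 46.6, 65.5 and 56.3 CPM in 8 h libraries. Bag3, an exchange factor of HSP70, stood at 67.7, 50.4 and 71.9 CPM in fed and 22.5, 19.0 and 20.9 CPM in 8 h libraries, and Chordc1, which binds HSP90, at 70.4, 75.4 and 67.8 CPM in fed and 28.5, 23.3 and 26.7 CPM in 8 h libraries. Actg1, a cytoplasmic actin, stood at 452, 279 and 243 CPM in fed and 106, 90.5 and 89.2 CPM in 8 h libraries and Tuba1c, an alpha-tubulin, at 209, 192 and 192 CPM in fed and 57.8, 47.3 and 59.5 CPM in 8 h libraries. All 5 were lower in the 8 h libraries. Il1r1, an interleukin-1 receptor, stood at 19.9, 28.0 and 28.1 CPM in fed and 173, 70.9 and 87.7 CPM in 8 h libraries and Il6ra, an interleukin-6 receptor chain, at 9.61, 17.4 and 17.2 CPM in fed and 39.0, 39.7 and 30.9 CPM in 8 h libraries. Il1r1 was highest in 8 h replicate 1, a library with high Saa1, and Il6ra was not. Ccng2, a cyclin and known FOXO target, stood at 6.08, 6.46 and 6.81 CPM in fed and 31.5, 43.2 and 38.9 CPM in 8 h libraries, and Lpl, lipoprotein lipase, at 2.14, 2.25 and 1.64 CPM in fed and 11.2, 10.8 and 4.56 CPM in 8 h libraries. Groups were separate in each of these genes, which were likewise picked with their values in view, so their separation and direction test nothing.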
